A study of Danio rerio with 15 samples.

Results

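Ventricles of adult zebrafish taken 9 days after the end of phenylhydrazine treatment were compared with ventricles taken 5 days after it, across all genes on the array. The comparison used the 3 arrays labelled 9 days and the 3 labelled 5 days, 6 of the 15 arrays of the series, and 19260 genes. Phenylhydrazine lyses red blood cells, and the series used it to bring on anaemia and heart failure and then followed the hearts without it. Over 5 weeks both groups had a bath with the compound once in 3 days, lasting 30 min, with 1.25 µg/mL during the opening week and 2.5 µg/mL from then on. They differed in the days since then. The 3 control arrays, used here to place values, came from fish handled the same way without the compound. All 15 arrays of the series shared a common estimate of the spread behind the standard errors and p-values. Each array held 250 ng of RNA from 3 pooled ventricles, and no strain, genotype, age or sex is used here. The labels name no control group for each recovery day, so recovery time and sampling day cannot be told apart.

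Dividing cells copy their DNA with a set of enzymes that make nucleotides, open the double helix and load the replication clamp, and then separate the copies with a spindle of microtubules and its motors. Most heart muscle cells of adult mammals no longer do this, whereas zebrafish heart muscle, the lining of the heart and the epicardium can divide again after injury. Hearts also choose between glucose and fatty acids as fuel, a choice that pyruvate dehydrogenase kinases set by switching off the entry of pyruvate into the mitochondrion. Growth-restraining genes such as cyclin-dependent kinase inhibitors and the muscle ubiquitin ligases are targets of the FoxO transcription factors.

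The values are log2 expression levels as deposited, so a difference of 1 is a doubling, and errors of differences are standard errors. Array medians lay between 4.053 and 4.095 on the 6 arrays. Transcript clusters are the array's units, and of 75212 here 53551 had no gene symbol. Over all of these clusters Pearson correlations of array pairs ran from 0.9789 to 0.9809 within the groups. Between the groups they ran from 0.9752 to 0.9808, with clusters that are not independent of each other. The 7 measured markers of heart muscle cells had a median level at percentile 99.8 of all genes, with irx4a the lowest at percentile 16.2. Of these 7, 0 were called between the days by limma or had an unadjusted p under 0.05. Markers of liver, skeletal muscle, neurons and gonad had medians between percentiles 15.8 and 28.15, but the skeletal muscle marker ckma lay at percentile 99.9. The 4 atrial markers had a median at percentile 69.2. Their log2 levels summed to 27.79 to 31.92 at 5 days and 29.82 to 30.72 at 9 days. Of them myh6, tnnc1b and nr2f1a were lowest among the 5-day arrays on replicate 2, and nr2f2 was not. In pooled tissue, fewer cells of a type and less RNA per cell cannot be told apart.

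From 5 to 9 days 1178 genes were called at an adjusted p under 0.05 (limma, Benjamini-Hochberg over all genes), which is 6.12% of those tested. Of these 552 were higher at 9 days (2.87%) and 626 lower (3.25%). With each array centred on its own median the split turned, to 632 higher and 504 lower, so which direction had more calls depended on the scaling. A change of at least 1.5-fold was reached by 485 of them (2.52%), 194 higher and 291 lower, and a change of at least 2-fold by 36 and 71. In 1167 of the called genes (6.06% of all) the 3 arrays of one day did not overlap those of the other. Over all genes the arrays did not overlap in 21.7%. The 15 largest named rises and falls were drawn only from called genes without overlap. Since nearly all called genes lack it, a missing overlap adds no support for a called gene. The count leaned on particular arrays. It was 615 without 5-day replicate 3 and 664 without 9-day replicate 3. The genes called higher were 316 and 308 in these fits and 366 without 9-day replicate 2, and the genes called lower were 299 and 356 in the same pair of fits. In all, 445 genes were called in each of the 6 fits that left out 1 array, 200 higher and 245 lower. Genes said below to hold are members of those 445. By comparison the same fit called 36 genes between 5 and 2 days, 0.187% of those tested.

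**Figure D1:**
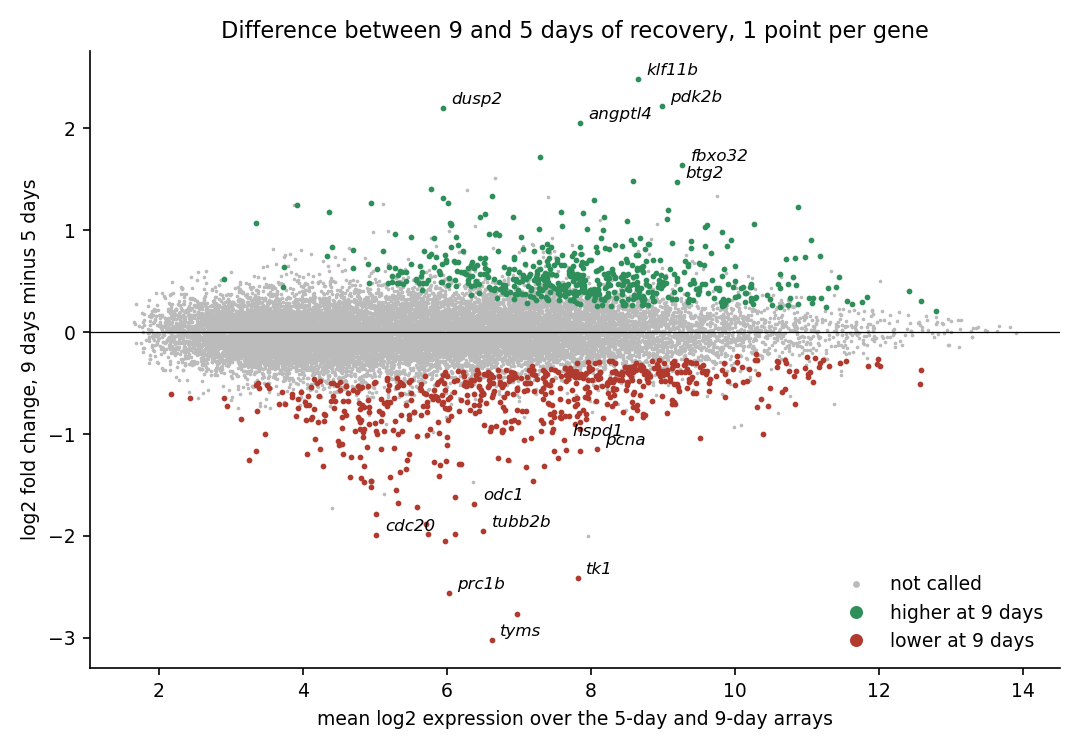
Difference between 9 and 5 days (log2, vertical axis) against the mean log2 level of each gene (horizontal axis), with called genes coloured by direction and the named ones labelled. Among the named genes tyms fell by 3.02, the most of all, and klf11b rose by 2.48.

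The position of the control level differed among the called genes. Among the 552 genes called higher, the control mean lay between the 5-day and the 9-day means in 411 (74.5%), beyond the 9-day mean in 53 (9.6%) and beyond the 5-day mean in 88 (15.9%). The corresponding shares for the 626 genes called lower were 398 (63.6%), 120 (19.2%) and 108 (17.3%), and over all 19260 genes the control mean lay between the days in 31.5%. The control mean was nearer to the 9-day mean than to the 5-day mean in 220 (39.9%) of the genes called higher, 317 (50.6%) of those called lower and 49.1% of all genes. Among the genes called higher, 431 (78.1%) had their highest mean of the 5 groups at 9 days, against 19.9% of all genes. Among those called lower, 474 (75.7%) had their lowest group mean at 9 days, against 20.1% of all genes. These positions were partly fixed by choosing genes on the gap between the 5-day and the 9-day arrays and were given no test. A wide gap alone makes a control mean between the days more likely. Against control, 1227 genes were called at 5 days (6.37%) and 1452 at 9 days (7.54%). These comparisons share arrays with the one between the days.

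Many DNA replication genes fell. Of 49 measured members 25 were called lower at 9 days and 0 higher (35 and 0 at an unadjusted p under 0.05 in limma's fit, which 18.7% of all genes reached), 51% against 3.25% of all genes, and the median difference was -0.52 against -0.01 over all genes. Of those 25, 18 held without any single array, and the count without 1 array was 18 to 24. The list was below its 5-day level in 48 of 49 members. Its median difference from control was 0.76 at the end of treatment, 0.75 at 2 days, 0.44 at 5 days and -0.06 at 9 days. At 5 days 18 members were called above control (3.9% of all genes were), and at 9 days 0 were above (4.24% of all) and 3 below (3.3% of all).

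Within this list the 2 largest falls were those of enzymes that make thymidine nucleotides. Thymidylate synthase (tyms) read 8.22, 7.96 and 8.23 on the 5-day arrays and 5.23, 5.20 and 4.92 on the 9-day arrays, with control arrays at 5.65, 5.86 and 5.17. The days did not overlap, and tyms fell by 3.02 ± 0.17, an 8.11-fold change (limma, adjusted p = 5.61e-08). Thymidine kinase (tk1), the salvage enzyme for the same nucleotide, read 9.05, 8.80 and 9.23 at 5 days and 6.70, 6.68 and 6.46 at 9 days. It fell by 2.41 ± 0.16, or 5.32-fold (adjusted p = 4.09e-07), and at 9 days lay within the range of the control arrays. The ribonucleotide reductase genes rrm1 and rrm2l, which make the deoxynucleotides, fell by 1.23 ± 0.11 and 1.61 ± 0.33.

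The replication machinery itself followed. The sliding clamp pcna read 8.68, 8.55 and 8.75 at 5 days and 7.47, 7.42 and 7.65 at 9 days, with controls at 7.28, 7.64 and 7.46. It fell by 1.15 ± 0.11, a 2.21-fold change (limma, adjusted p = 1.42e-05), and differed from control by 0.05 at 9 days (adjusted p = 0.84). The helicase subunits mcm4, mcm6 and mcm7 fell by 1.55 ± 0.19, 1.27 ± 0.18 and 0.97 ± 0.11, and the histone-depositing chromatin assembly subunits chaf1b and chaf1a by 1.68 ± 0.12 and 1.41 ± 0.14. The single-strand DNA binding subunit rpa2 read 7.50, 7.42 and 7.52 at 5 days and 6.18, 6.18 and 6.31 at 9 days, against 6.57, 6.67 and 6.76 in controls. It passed from above control at 5 days, by 0.81, to below it at 9 days, at -0.44 (adjusted p = 0.012). The other 2 members called below control at 9 days were DNA ligase 1 (lig1) at -0.52 and the ribonuclease H2 subunit rnaseh2a at -0.55. The fall of rnaseh2a between the days (adjusted p = 0.0103) was no longer called without 5-day replicate 3 or 9-day replicate 3.

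Mitosis genes fell as well. Of 48 measured members 32 were called lower at 9 days, 66.7% against 3.25% of all genes, and 0 were called higher, with 40 and 0 at an unadjusted p under 0.05. Their median difference was -0.81, and 24 of the 32 held without any single array. At 5 days 36 members were called above control (3.9% of all genes were) and at 9 days 1 (4.24% of all). That 1 was the phosphatase cdc25b, which activates cyclin-dependent kinases and was still 0.47 above control (limma, adjusted p = 0.0072). The list's median difference from control was 0.94 at the end of treatment, 0.69 at 2 days, 0.87 at 5 days and 0.11 at 9 days.

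The kinase that drives entry into mitosis, cdk1, read 6.79, 6.67 and 6.74 at 5 days and 4.98, 4.61 and 4.66 at 9 days, with controls at 4.44, 4.66 and 4.88. It fell by 1.98 ± 0.14, a 3.96-fold change (limma, adjusted p = 4.09e-07), and at 9 days 2 of its arrays lay among the controls and replicate 1 just above them. The cytokinesis gene prc1b, whose protein bundles microtubules between the separating chromosomes, read 7.41, 7.10 and 7.42 at 5 days and 5.38, 4.51 and 4.34 at 9 days. It fell by 2.56 ± 0.24, or 5.9-fold (adjusted p = 1.43e-05), with 9-day replicate 1 the highest of its group. The activator of the anaphase-promoting complex, cdc20, read 5.87, 6.13 and 6.07 at 5 days and 4.197, 3.74 and 4.14 at 9 days, and fell by 2.00 ± 0.14.

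Other spindle and cytokinesis genes also fell. The spindle protein nusap1 fell by 2.05 ± 0.19, the kinesin kif20a by 1.99 ± 0.16 and the contractile ring scaffold anln by 1.89 ± 0.21, with 9-day means 0.30, 0.21 and 0.05 above control. The cyclin ccna2 fell by 1.43 ± 0.18 and the spindle kinesin kif23 by 1.19 ± 0.13. Not every member held. The mitotic kinase plk1 fell by 1.00 ± 0.22 (limma, adjusted p = 0.0112) but was not called without 5-day replicate 3, and topoisomerase top2a, which untangles chromosomes, fell by 0.76 ± 0.16 and was not called without 5-day replicate 2. Outside both lists the 15 largest named falls held 4 more genes. They were the kinetochore adaptor spdl1 at -1.78, the importin kpna2 at -1.71, the tubulin tubb2b at -1.95 and ornithine decarboxylase odc1, the enzyme that starts polyamine synthesis, at -1.69.

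**Figure D2:**
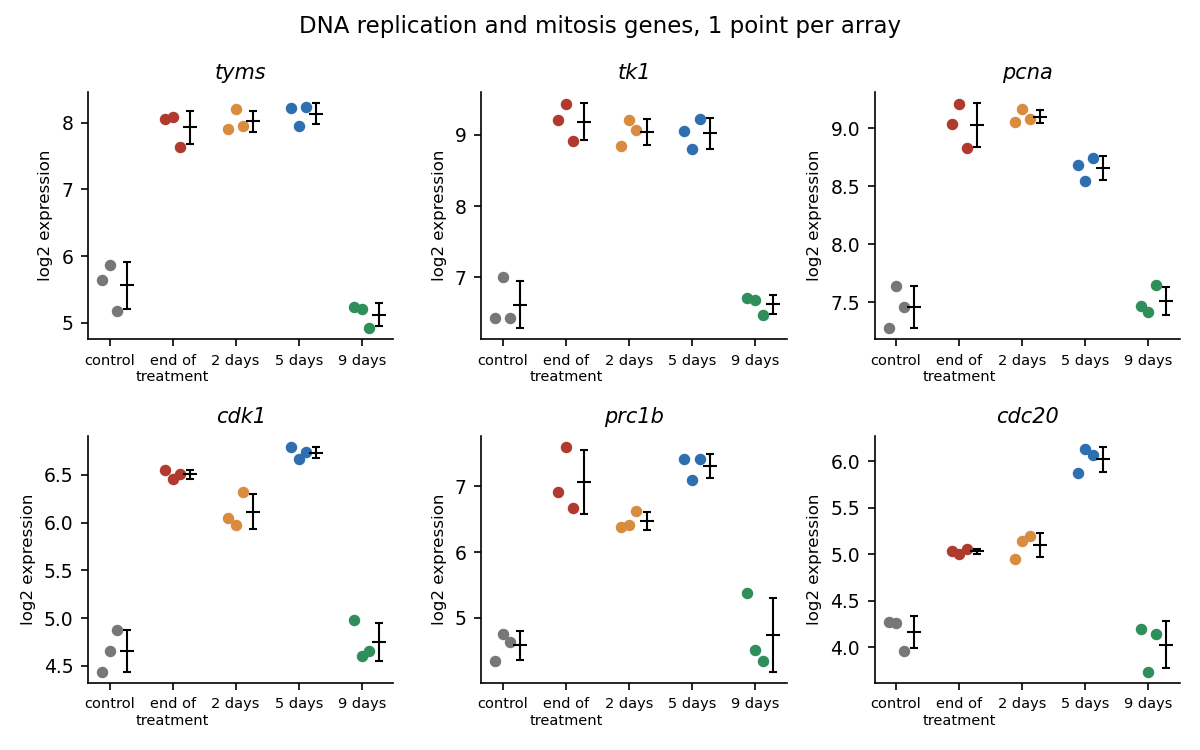
Log2 level of tyms, tk1, pcna, cdk1, prc1b and cdc20 on every array of the 5 groups (points), with group means and SD (n = 3). In each panel the 3 arrays of 9 days lie below the 3 of 5 days.

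Red cell and thrombocyte markers had lower sums at 9 days, with few calls. The summed log2 level of 4 red cell markers was 41.2 to 42.33 on the 5-day arrays and 39.18 to 39.47 on the 9-day arrays, and that of 4 thrombocyte markers 26.87 to 27.83 and 25.26 to 25.80. In each set 1 of the 4 was called (slc4a1a and itga2b), while 6.12% of all genes were. Both calls were lost with any 1 of the 6 arrays left out. At an unadjusted p under 0.05, which 18.7% of all genes reached, limma's fit had 4 of the 4 red cell and 2 of the 4 thrombocyte markers. The 7 heart muscle markers summed to 77.71 to 79.50 at 5 days and 77.80 to 77.94 at 9 days. The 5 endothelial markers gave 48.08 to 48.93 and 48.02 to 49.08. The 4 macrophage markers gave 27.30 to 27.99 and 27.59 to 28.66. These 3 sets overlapped between the days, as did the 3 neutrophil markers at 17.16 to 18.31 and 17.21 to 20.14. The 3 liver markers, all at low levels, summed to 10.11 to 11.02 at 5 days and 9.47 to 9.69 at 9 days, without overlap and with 0 calls in limma's fit and 1 at an unadjusted p under 0.05. The array gives no detection limit here, so no marker can be called absent. The part of any cell type in the fall of the cycle genes was not tested.

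**Figure D3:**
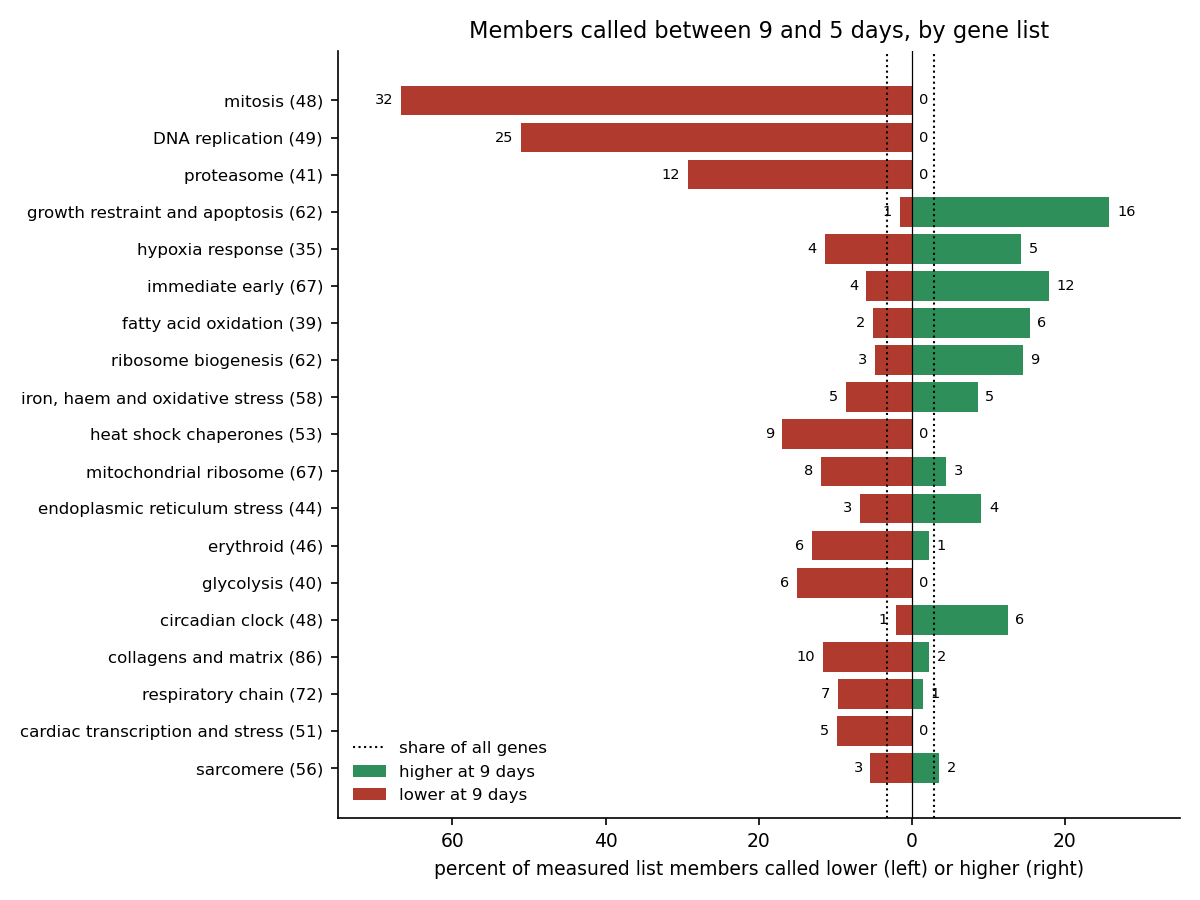
Members called higher (to the right) and lower (to the left) at 9 days as a percent of each gene list, for the lists with at least 5 called members, with counts beside the bars and dotted lines at the shares of all genes. Mitosis, with 32 of 48 lower, and DNA replication, with 25 of 49, stand furthest to the left.

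Part of the genes that restrain growth or promote cell death rose. Of 62 measured members 16 were called higher at 9 days, 25.8% against 2.87% of all genes, and 1 was called lower. The list's median difference was 0.17. Without 5-day replicate 3 or 9-day replicate 3 the count of 16 was 10, and 7 members held without any single array. Not all members point the way the list is named. Mcl1b, which blocks apoptosis, was among those called higher (0.47, not called without 9-day replicate 3), and the cell cycle brake rb1 was the 1 called lower (-0.61, not called without 5-day replicate 3 or 9-day replicate 3). At 9 days 13 members were called above control and at 5 days 2 (4.24% and 3.9% of all genes were).

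The muscle ubiquitin ligase fbxo32 (atrogin-1), which marks muscle proteins for breakdown, had the smallest adjusted p of the list. It read 8.50, 8.63 and 8.22 on the 5-day arrays and 9.77, 10.06 and 10.42 on the 9-day arrays, with controls between them at 9.29, 9.59 and 9.58. It rose by 1.64 ± 0.17, a 3.11-fold change (limma, adjusted p = 3.83e-05), from 1.04 below control to 0.60 above it. The cyclin-dependent kinase inhibitor cdkn1bb, a p27 gene, read 7.47, 7.76 and 7.82 at 5 days and 8.38, 8.68 and 8.76 at 9 days. Its 9-day arrays lay above both the 5-day and the control arrays (7.65 to 7.83), and it rose by 0.92 ± 0.13 (adjusted p = 0.000445).

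The translation repressor eif4ebp3l, which holds back the cap-binding factor, read 10.45, 10.46 and 10.50 at 5 days and 11.08, 11.22 and 11.31 at 9 days. It rose by 0.73 ± 0.10, and the 9-day arrays again lay above the controls. The mitophagy receptor bnip3 rose 2.3-fold, from 8.51, 8.80 and 8.10 to 9.45, 9.60 and 9.96 (adjusted p = 0.00118). The atypical cyclin ccng2, the sestrin sesn1 and the transcription factor foxo4 rose by 1.13 ± 0.19, 0.90 ± 0.18 and 0.52 ± 0.10. All 4 held without any single array. Another muscle ubiquitin ligase gene, trim63a (MuRF1), was called at 0.55 ± 0.12 but lost the call without 5-day replicate 1, 5-day replicate 3 or 9-day replicate 3.

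The pyruvate dehydrogenase kinase pdk2b and angptl4, a brake on lipoprotein lipase, were among the 15 largest named rises. The kinase pdk2b read 8.16, 7.08 and 8.38 at 5 days and 9.49, 10.29 and 10.51 at 9 days, with controls at 8.67, 7.50 and 8.76. It rose by 2.22 ± 0.35, a 4.66-fold change (limma, adjusted p = 0.0011). At the end of treatment pdk2b stood 3.00 above control, more than the 1.79 at 9 days. Its paralogue pdk2a rose by 0.74 ± 0.10, from 10.80, 10.73 and 10.88 to 11.28, 11.66 and 11.70. It stood 1.08 above control at 9 days and 1.05 above control at the end of treatment. RNA of near-identical paralogues can bind the same probes, and how far that holds for this pair was not examined.

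The lipase inhibitor angptl4 read 6.32, 6.48 and 7.68 at 5 days and 8.02, 9.24 and 9.38 at 9 days. It rose by 2.05 ± 0.36, or 4.15-fold (limma, adjusted p = 0.00285), while its 5-day arrays overlapped the controls at 6.26, 6.38 and 7.09. At the end of treatment angptl4 stood 2.195 above control, and at 9 days 2.303. The 3 genes pdk2b, pdk2a and angptl4 were the members that held of a fatty acid oxidation list with a median difference of 0.01. In it 6 of 39 members were called higher (15.4%, against 2.87% of all genes) and 2 lower (5.1%, against 3.25%). The other 3 called higher were pdk4, the fatty acid binding protein fabp3 and the lipase lpla. None of the 6 is an enzyme of the oxidation cycle. The count of 6 was 3 without 5-day replicate 2, 5-day replicate 3, 9-day replicate 2 or 9-day replicate 3.

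Immediate early genes, whose transcription answers stimuli within minutes, were called in both directions. Of 67 measured members 12 were higher (17.9%) and 4 lower (6%), against 2.87% and 3.25% of all genes. The median difference was 0.23. The 12 became 7 without 5-day replicate 3, 7 without 9-day replicate 2 and 6 without 9-day replicate 3. The Krüppel-like transcription factor klf11b had the largest named rise of the comparison. It read 7.61, 7.15 and 7.47 at 5 days and 9.73, 10.38 and 9.56 at 9 days, with controls between them at 8.66, 8.96 and 9.40. It rose by 2.48 ± 0.21, a 5.6-fold change (limma, adjusted p = 4.33e-06), from 1.60 below control to 0.89 above. At the end of treatment klf11b stood 1.59 above control, so its highest group mean was not at 9 days.

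The other immediate early genes that held were smaller or more variable. The MAP kinase phosphatase dusp2 read 4.66, 4.86 and 5.02 at 5 days and 5.75, 7.29 and 8.09 at 9 days, so that its 4.58-fold rise (adjusted p = 0.00935) came with a wide spread among the 9-day arrays. The antiproliferative genes btg2 and btg1 rose by 1.47 ± 0.31 and 0.41 ± 0.06, the nuclear protein gene csrnp1a by 1.34 ± 0.27 and the transcriptional coactivator cited4b by 0.97 ± 0.14. In the other direction ier5l fell by 0.83 ± 0.12, and the flow-responsive endothelial factor klf2b by 0.78 ± 0.15 to 1.07 below control. Among the 15 largest named rises outside the lists, the kelch gene klhl38b rose by 1.72 ± 0.20, rbm48, a gene of minor intron splicing, by 1.48 ± 0.15 and gbp by 1.41 ± 0.20. Of the same 15, klhl38a, igldcp, herc56.3 and nfil3-6 rose by 1.27, 1.32, 1.18 and 1.22 but lost the call with at least 1 array left out. For herc56.3 it was 9-day replicate 2 and for nfil3-6 9-day replicate 3, for klhl38a replicates 2 and 3 of both days, and for igldcp all 5-day replicates and 9-day replicate 1.

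**Figure D4:**
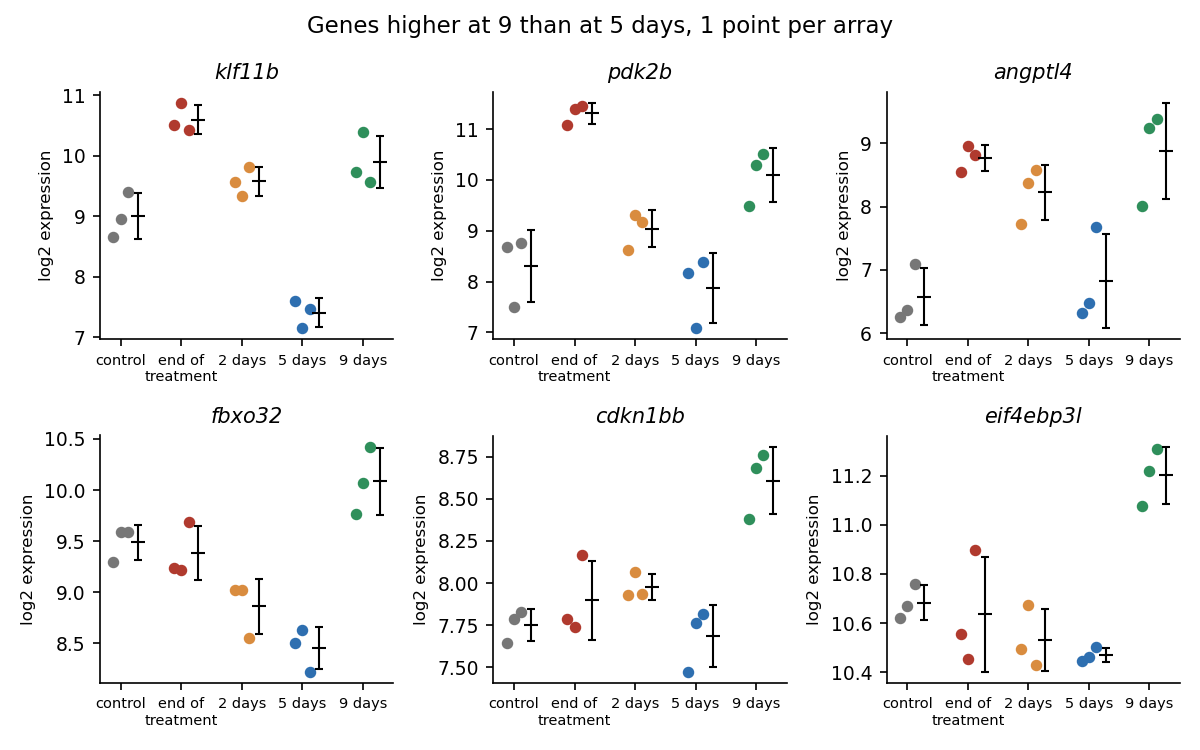
Log2 level of klf11b, pdk2b, angptl4, fbxo32, cdkn1bb and eif4ebp3l on every array of the 5 groups (points), with group means and SD (n = 3). In each panel the 3 arrays of 9 days lie above the 3 of 5 days.

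Many clock genes follow the time of day, and in zebrafish they also answer to light. Of 48 measured 6 were called higher (12.5%, against 2.87% of all genes) and 1 lower. The PAR bZIP transcription factor tefb, an output gene of the clock, read 8.32, 8.41 and 8.44 at 5 days and 9.11, 9.01 and 9.02 at 9 days and rose by 0.65 ± 0.10 (limma, adjusted p = 0.00118). It was the only clock member that held without any single array. The list's count of 6 was 2 without 5-day replicate 2 and 1 without 9-day replicate 3. No hour of sampling is used here, and the part of the hour in these or other genes was not tested.

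Part of the proteasome genes fell by small amounts. Of 41 measured subunits and partners 12 were called lower (29.3%, against 3.25% of all genes) and 0 higher. The difference was below 0 in 38, and the median was -0.30. Without 5-day replicate 3 or 9-day replicate 3 the count of 12 was 6, and 5 held without any single array. Psmd2, a scaffold subunit of the regulatory particle, read 11.22, 11.23 and 11.22 at 5 days and 10.91, 10.78 and 10.74 at 9 days, with controls at 11.12, 11.12 and 11.08. It fell by 0.41 ± 0.06, a 1.33-fold change (limma, adjusted p = 0.000527). The regulatory particle subunits psmd12 and psmd11b and the assembly chaperone psmd5 fell by 0.59 ± 0.09, 0.50 ± 0.09 and 0.59 ± 0.10, and the core subunit psma3 by 0.42 ± 0.08. Against control 1 member was called above at 5 days (3.9% of all genes were) and 8 were called below at 9 days (3.3% of all).

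Chaperones were called lower in 9 of 53 (17%, against 3.25% of all genes) and higher in 0, but this count leaned on few arrays. It was 3 without 5-day replicate 2 and 1 without 5-day replicate 3 or 9-day replicate 3. The member that held was hspd1, the chaperonin that folds proteins inside mitochondria. It read 7.90, 8.03 and 8.53 at 5 days and 7.03, 7.34 and 6.90 at 9 days, against 7.78, 8.16 and 7.95 in controls, and fell by 1.06 ± 0.16 (limma, adjusted p = 0.000715) to 0.87 below control. Of 44 endoplasmic reticulum stress genes 4 were called higher (9.1%) and 3 lower (6.8%), against 2.87% and 3.25% of all genes. The chaperone of that compartment, hspa5, fell by 0.63 ± 0.10, and the stress-induced pseudokinase trib3 rose by 0.88 ± 0.17.

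Glycolysis genes were called lower in 6 of 40 (15%, against 3.25% of all genes) and higher in 0, with a median difference of -0.10. Of the 6, 4 held without any single array. The glucose transporter slc2a3b read 6.07, 6.81 and 6.79 at 5 days and 5.32, 5.36 and 5.67 at 9 days, and fell by 1.11 ± 0.22 (limma, adjusted p = 0.00564). The days did not overlap, and its 9-day mean was 0.31 above control (adjusted p = 0.46). The enzymes pgam1a, gapdhs and ldha fell by 0.72 ± 0.11, 0.59 ± 0.10 and 0.33 ± 0.07. At 9 days pgam1a and ldha were called below control, at -0.46 and -0.25, and gapdhs was not, at -0.11. In the list 6 members were called below control at 9 days and 1 above (3.3% and 4.24% of all genes were). The paralogue slc2a3a gave -0.47 ± 0.24 and was not called (adjusted p = 0.322).

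Genes of a low-oxygen response list split. Of 35 measured 5 were called higher (14.3%) and 4 lower (11.4%), against 2.87% and 3.25% of all genes. The median was -0.06. The members called higher that held were bnip3, its relative bnip3la at 0.42 ± 0.08 and the insulin-like growth factor binding protein igfbp1b at 1.13 ± 0.21. The member called lower that held was the collagen lysyl hydroxylase plod2, from 9.07, 9.12 and 9.18 to 8.49, 8.39 and 8.09, a fall of 0.80 ± 0.13. The other transcript cluster of plod2 on the array gave -0.21. The oxygen-sensing hydroxylase egln3 and the oxidase ero1a gave -0.85 ± 0.20 and -1.04 ± 0.23, and both calls were lost without 5-day replicate 3 or 9-day replicate 2, and that of egln3 also without 5-day replicate 2 or 9-day replicate 1. The count of 5 was 3 without 9-day replicate 3. At the end of treatment plod2, egln3 and ero1a were called above control, by 2.61, 2.68 and 4.30. There bnip3, bnip3la and igfbp1b were not called, at 0.33, -0.15 and -0.58. Another member called higher between the days, adma, stood 1.64 above control at the end of treatment and was called there.

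Mitochondrial and ribosomal genes changed in few members. In the respiratory chain 7 of 72 were called lower (9.7%, against 3.25% of all genes) and 1 higher, with a median of 0.03. The cytochrome oxidase subunits cox6a1 and cox8a fell by 0.83 ± 0.14 and 0.39 ± 0.08, and the complex I subunit ndufv1 by 0.34 ± 0.07. The 3 transcript clusters of uqcrc1 disagreed, from -0.30 to 0.16. Mitochondrial ribosome genes were called lower in 8 of 67 (11.9%) and higher in 3 (4.5%), against 3.25% and 2.87% of all genes. Without 5-day replicate 3 or 9-day replicate 3 the count of 8 became 1. The others of these fits that moved it past 1.5-fold were those without 5-day replicates 1 and 2 and 9-day replicate 1, at 5, 4 and 3. The subunit mrpl46 fell by 0.65 ± 0.13, whereas mrpl15 and mrps35 rose by 0.48 ± 0.08 and 0.38 ± 0.06, each without losing the call in any such fit.

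Of 65 cytosolic ribosomal proteins 0 were called by limma, and 2 had an unadjusted p under 0.05, 1 in each direction. Of 62 genes of ribosome assembly 9 were called higher (14.5%) and 3 lower (4.8%), against 2.87% and 3.25% of all genes. The median was 0.06. The processome gene utp4 read 5.48, 5.38 and 5.23 at 5 days and 6.21, 6.30 and 6.35 at 9 days, with controls at 6.15, 6.35 and 6.23. It rose by 0.93 ± 0.13 (limma, adjusted p = 0.000469) from below control to 0.04 above it. The assembly factor sdad1, the Myc transcription factor mycb and mybbp1a, a regulator of ribosomal RNA transcription, rose by 0.86 ± 0.13, 0.50 ± 0.09 and 0.41 ± 0.08. The count of 9 was 5 without 5-day replicate 2 or 9-day replicate 3.

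Matrix genes were called lower in 10 of 86 (11.6%, against 3.25% of all genes) and higher in 2, with a median of -0.13. The collagen cross-linking oxidase loxa read 5.59, 5.42 and 5.58 at 5 days and 4.58, 4.85 and 4.17 at 9 days, against 4.52, 4.66 and 4.61 in controls. It fell by 1.00 ± 0.18 (limma, adjusted p = 0.00335), and the days did not overlap. The basement membrane collagen col4a2 and the fibrillar collagen col5a2a fell by 0.49 ± 0.07 and 0.46 ± 0.08, and efemp2b, a fibulin of elastic fibres, rose by 0.50 ± 0.10. The count of 10 was 5 without 5-day replicate 1 or 9-day replicate 3 and 6 without 5-day replicate 2. The 6 fibroblast and epicardium markers summed to 47.85 to 48.67 at 5 days and 44.98 to 48.42 at 9 days, and their part in these values was not tested.

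Contractile genes of the heart muscle cell were called at shares near those of all genes. Of 56 sarcomere genes 2 were called higher and 3 lower, 3.6% and 5.4% against 2.87% and 3.25% of all genes. The Z-disc gene ldb3b rose by 0.30 ± 0.07, the only sarcomere call to hold without any single array. Of 51 genes of cardiac transcription and stress 5 were called lower (9.8%) and 0 higher, with a median of -0.03 and 8 and 2 at an unadjusted p under 0.05. The 5 were 3 without 5-day replicate 2 or 9-day replicate 3 and 2 without 5-day replicate 3, and 2 of them, klf2b and irx5a, held. The natriuretic peptide nppb, a hormone made by strained heart muscle, read 10.80, 10.81 and 10.85 at 5 days and 9.79, 10.29 and 10.21 at 9 days, with controls at 9.48, 9.71 and 10.21. It fell by 0.72 ± 0.17 (limma, adjusted p = 0.0159), and the call was lost without 5-day replicate 3 or 9-day replicate 1. The related nppa gave -0.19 ± 0.09 and was not called (adjusted p = 0.279). It stayed called above control on both days, by 0.63 and 0.43.

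The myosin heavy chain genes were not called. Atrial myh6 read 11.15, 9.31 and 10.51 at 5 days and 10.57, 10.80 and 10.56 at 9 days, a difference of 0.32 ± 0.28 (limma, adjusted p = 0.615), and 5-day replicate 2 was the lowest of the 6. The gene myh7 gave -0.47 ± 0.32 (adjusted p = 0.483). Among transcription factors of the heart, irx5a fell by 0.67 ± 0.13, and its other transcript cluster gave 0.03. The connexin gja5b, which couples heart muscle cells electrically, fell by 0.44 ± 0.09. The growth factor wnt11 fell by 0.74 ± 0.16 and the chromatin protein hmga1a, known for its part in zebrafish heart regeneration, by 0.69 ± 0.10.

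Red cell genes were in part above control on both days. Of 46 erythroid genes 6 were called lower (13%, against 3.25% of all genes) and 1 higher, with a median of -0.18. Of the 46, 18 were called above control at 5 days and 13 at 9 days (3.9% and 4.24% of all genes were). The transferrin receptors tfr1a and tfr1b, which take up iron, fell by 0.71 ± 0.10 and 1.23 ± 0.24. Of the 6 these 2 held. The count of 6 was 3 without 5-day replicate 2 or 9-day replicate 2 and 2 without 5-day replicate 3 or 9-day replicate 3. Of 7 globin genes 0 were called by limma, and 2 had an unadjusted p under 0.05. Hbaa2 read 10.56, 10.06 and 10.98 at 5 days and 9.82, 9.47 and 9.56 at 9 days, a difference of -0.92 ± 0.28 (limma, adjusted p = 0.0659), and hbba2 gave -0.51 ± 0.20 (adjusted p = 0.165). The haem oxygenase gene hmox1a gave 0.06 ± 0.17 and the erythropoietin receptor epor 0.50 ± 0.20, also without a call. Of 25 thrombocyte genes 3 were called lower (12%) and 1 higher (4%), against 3.25% and 2.87% of all genes. In 18 the difference was below 0, and the median was -0.16. The calls that held were 1 each way, in which the transcription factor gfi1b fell by 0.62 ± 0.10 while thromboxane synthase tbxas1 rose by 0.80 ± 0.09.

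Immune cell lists gave few calls or none. Of 27 pan-leukocyte genes 0 were called between the days (median 0.00). Above control 13 of them were called at 5 days and 12 at 9 days (3.9% and 4.24% of all genes were). Of 38 macrophage genes 1 was called, the iron exporter slc40a1 at 0.45 ± 0.11. It was not called without 5-day replicate 2, 5-day replicate 3 or 9-day replicate 1. In the macrophage list 11 and 14 of the 38 members were called above control at 5 and 9 days, against 3.9% and 4.24% of all genes. Neutrophil and lymphocyte lists had 0 calls of 30 and 37. At an unadjusted p under 0.05 limma's fit had 1 gene in each of the leukocyte, neutrophil and lymphocyte lists. A missing call does not show that the levels were alike. Interferon response genes were called higher in 4 of 60 (6.7%, against 2.87% of all genes) and lower in 0. The mono-ADP-ribosyltransferase family gene parp14rs1 rose by 0.77 ± 0.14 and held without any single array.

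The remaining lists had few calls or none, apart from that of iron, haem and oxidative stress. Among 58 genes of iron, haem and oxidative stress 5 were called higher and 5 lower (8.6% each, against 2.87% and 3.25% of all genes). The 5 higher were 3 without 5-day replicate 2 or 5-day replicate 3, and the 5 lower were 3 without 5-day replicate 3, 9-day replicate 2 or 9-day replicate 3. Among those that held, the autophagy receptor sqstm1 rose by 0.62 ± 0.10 and the peroxiredoxin prdx6 fell by 0.42 ± 0.08. Of 34 genes of cholesterol and fatty acid synthesis 2 were called lower (5.9%). They were the sterol sensor partner insig1 by 0.87 ± 0.16 and malic enzyme me1 by 0.39 ± 0.08. The same me1 was the 1 called of 32 genes of the tricarboxylic acid cycle (3.1%). Over all genes 2.87% were called higher and 3.25% lower. Of 95 growth signalling genes 3 were called lower (3.2%), and of 52 endothelial genes 2 lower (3.8%). Of 60 epicardium and regeneration genes 2 were called higher and 2 lower (3.3% each). Of 59 inflammation genes 1 was called each way (1.7% each), and of 41 calcium and ion handling genes 2 lower (4.9%). Of 36 liver genes 2 were called lower (5.6%), while 32 had a difference below 0 and the median was -0.22. Of 33 smooth muscle and pericyte genes 1 was called higher (3%). Of 43 skeletal muscle genes 1 was called lower (2.3%), and of 34 neural and pigment genes 1 higher (2.9%). Matrix proteases (41), atrium and outflow (25) and gonad (27) had 0 calls in limma's fit. They had 6, 3 and 3 genes at an unadjusted p under 0.05, which 18.7% of all genes reached.

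**Figure D5:**
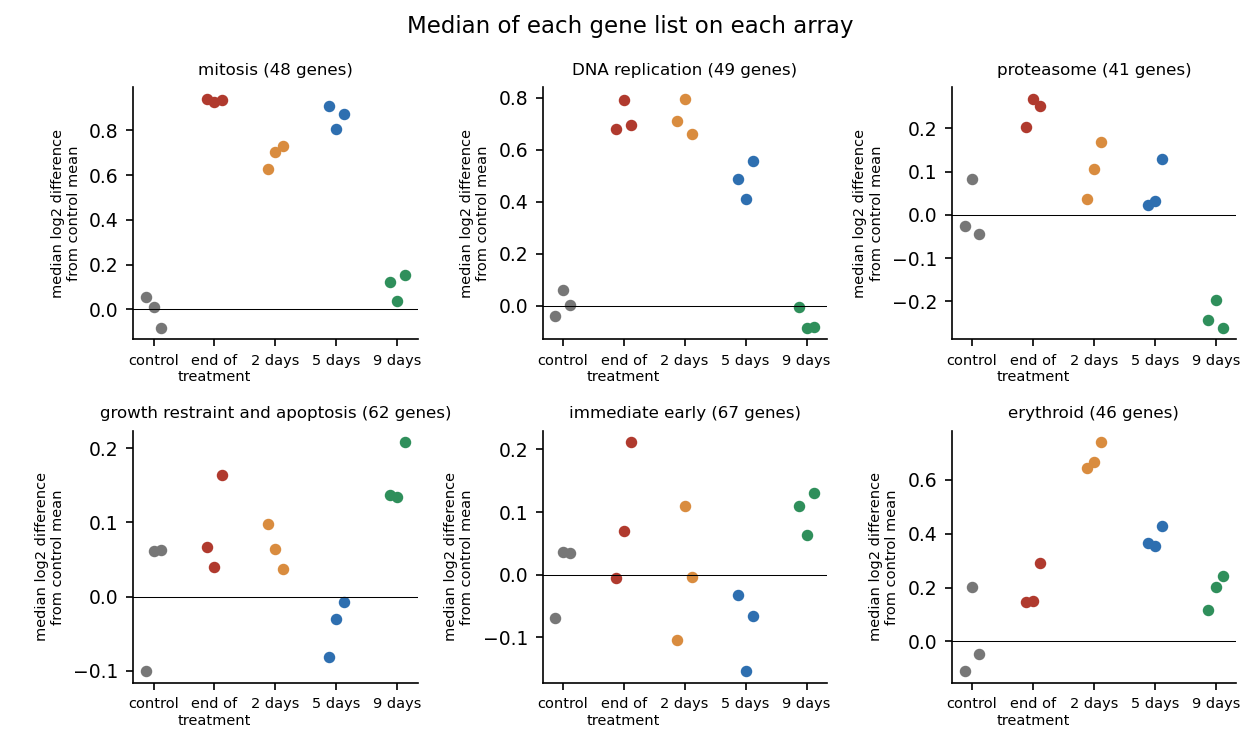
Median over a list's members of each array's difference from the control mean (log2, vertical axis) for 6 lists in the 5 groups, with 1 point per array and a line at the control mean. The mitosis values are 0.805 to 0.907 at 5 days and 0.038 to 0.155 at 9 days, and the growth restraint values -0.082 to -0.008 and 0.135 to 0.208.

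Single arrays kept these list values apart. For DNA replication the 5-day arrays gave 0.488, 0.409 and 0.555 above the control mean and the 9-day arrays -0.004, -0.084 and -0.081. For the proteasome list they were 0.022, 0.032 and 0.13 at 5 days and -0.244, -0.197 and -0.261 at 9 days. The immediate early list gave -0.032, -0.154 and -0.065 at 5 days and 0.11, 0.064 and 0.131 at 9 days. The erythroid list gave 0.364, 0.356 and 0.428 at 5 days and 0.115, 0.202 and 0.242 at 9 days. None of these 4 lists overlapped between the days. Their calls come from the same arrays, so the gap was partly fixed beforehand and adds no support. Lists with few or no calls also kept the days apart, so the gap was not particular to the 4. The sarcomere list gave -0.131, -0.136 and -0.117 at 5 days and -0.155, -0.196 and -0.228 at 9 days. The inflammation list gave -0.015, 0.068 and 0.09 at 5 days and 0.13, 0.14 and 0.107 at 9 days. The haemoglobin list, with 0 calls, gave 0.283, 0.259 and 0.352 and then 0.186, -0.094 and -0.168. Others, such as the macrophage list, overlapped. Of the 4, the erythroid list was the one above the control mean on all 6 arrays. Still, 1 control array, at 0.202, lay within its 9-day range.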

How the data were processed

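Total RNA of pooled zebrafish ventricles was measured on whole-transcript arrays, 15 in 5 groups of 3. The deposited values are log2 expression levels, and the submitters' processing notes name RMA (background correction, quantile normalisation and median polish) and the oligo package, with which the authors made them. The notes used here give no version, probe set level or genome build, and no coordinates are printed. Of 75212 transcript clusters 20806 had exactly 1 gene symbol, 855 had several and 53551 had none here. For 1365 genes with more than 1 cluster the brightest cluster stood for the gene, which left 19260 genes, 2326 of them with placeholder symbols that are not named.

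The model had a mean for each of the 5 groups and was fitted to all 15 arrays by limma 3.58.1 under R 4.3.3, 2-sided, with a variance trend over intensity and Benjamini-Hochberg adjustment over all genes at 0.05. The median standard error of the difference between the days was 0.143. Gene lists, 41 in number, were counted and given no test. Tables were made with pandas 2.3.3 and plots with matplotlib 3.10.9, both under Python 3.11.15. The members, lists and tests were chosen with earlier results of these data known. Genes named are the 15 largest rises and the 15 largest falls among called genes whose arrays do not overlap. Also named are up to 4 called members of each described list with the smallest adjusted p in each direction. To these come 12 genes chosen for the model whatever their values, of which vmhc was not measured. Further list members were named after their values were seen, and these include mcm6, mcm7, rrm1, chaf1a, lig1, rnaseh2a, cdc25b, ccna2, kif23, plk1, top2a, ccng2, foxo4, trim63a, mcl1b, pdk4, fabp3, btg1 and psma3.

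Same-numbered arrays of the 2 days had deviations from their group means that correlated at 0.021, 0.009 and -0.161. Different-numbered arrays gave -0.12 to 0.107. No pairing by number was seen, but so few arrays cannot exclude it. Alternatives were other variance models and scalings, another choice of clusters or genes, only the 6 arrays compared, a 1.5-fold minimum, the replicate number as a block and leaving out each array in turn. On simulated data for 9 against 5 days over 19260 genes, 42% of 100 genes changed by 0.5 and 96% of 100 genes changed by 1 were recovered, with 6 false calls. How many of the calls on the measured arrays were false was not tested. The number of arrays limits the precision.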

Additional observations from a re-analysis of the deposited data

How the results depend on the processing

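The count of 1178 called genes was 636 with only the 6 arrays of the 2 days (307 higher, 329 lower) and 485 with a 1.5-fold minimum (194 higher, 291 lower). Without 1 array it lay between 615 and 1172, with 308 to 501 genes higher and 299 to 671 lower. The replicate number as a block gave 1060 calls, 500 higher and 560 lower. No pairing by number was seen, and nothing on the size of the effect was drawn from this fit. The 12 proteasome genes called lower were 6 with only those 6 arrays, 2 with a 1.5-fold minimum and 6 to 11 without 1 array. The 12 immediate early genes called higher were 7 without a variance trend and 6 to 12 without 1 array. The 16 genes of growth restraint and apoptosis called higher were 10 to 17 without 1 array. With the third of genes of lowest mean left out, 1385 genes were called. The cause of these shifts was not tested. Of the named genes, 76 of 143 called kept the call in every setting applied to them, and 0 changed sign while called. The 1.5-fold minimum and the fit of every transcript cluster were not applied to named genes. A named gene absent from the fit without the lowest means was not counted as losing its call there. The balance of the counts did turn, to 632 higher and 504 lower with each array centred on its median and to 316 higher and 299 lower without 5-day replicate 3. Signal over background is unknown here, so it cannot be said which low levels were measured above it.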
